A study of Mus musculus with 6 samples.

Results

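The histone genes of the mouse were examined in bone marrow macrophages with and without RKIP, the Raf kinase inhibitor protein encoded by Pebp1. Genes were taken by symbol, namely those starting Hist1h, Hist2h, Hist3h, Hist4h, H2af, H3f or H1f. The deposited table mixes newer and older symbols, so that by the symbols in the table alone 24 of 27458 genes met the rule. The rule was therefore applied also to the older symbol of the same gene identifier in GENCODE M21, which brought in the other 60 and gave 84 genes. Of these, 64 are protein-coding genes whose older symbol starts Hist, called clustered here, and 10 encode variant histones. Another 9 are pseudogenes and 1 is the antisense RNA H3f3aos. These classes follow the symbols and not position. H4f16 (Hist4h4, chr6:136801553-136804415), the only gene classed as clustered on its chromosome, lies close to the variant H2aj (H2afj, chr6:136808244-136810074). Newer symbols are used below where the table has them, with the older symbol at first mention.

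The study set 3 libraries from RKIP knockout (KO) cells against 3 from wild-type (WT) cells. All 6 were primary bone marrow macrophages exposed to macrophage colony-stimulating factor (M-CSF), the cytokine that drives marrow precursors to become macrophages. The series asks how RKIP bears on macrophage differentiation. The labels give genotypes of RKIP-/- for the KO and RKIP+/+ for the WT, with no strain, age, targeted exon or duration of M-CSF. Whether each library had its own animal or culture is not stated in them either, and the spread behind each p-value may then be only technical.

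A nucleosome is DNA wrapped round a core of the histones H2A, H2B, H3 and H4, with the linker histone H1 outside it. Cells that copy their DNA make most of this protein from the clustered genes, which mostly lack introns and are switched on in S phase. Some members, H2bc4 and H2bc6 among them, are annotated with a gene span longer than their longest transcript. Their mRNAs usually end in a stem-loop bound by SLBP in place of a poly(A) tail, although some clustered genes can also be read through to a downstream poly(A) site. Variant histone genes mostly lie apart, mostly give polyadenylated mRNAs, and supply histones to cells outside S phase. These libraries were made from RNA selected on oligo(dT), which retains RNA with a poly(A) tail. The levels below are therefore those of the RNA that selection retained, and the amount of mRNA ending at the stem-loop was not measured.

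The stem-loop is shown for the members on which the results turn, because it marks where the usual clustered mRNA ends and how far the annotated transcript runs past it. Sequences were read from GENCODE M21 transcripts of GRCm38, 5′ to 3′ on the strand of the gene. Capitals mark the 6-base arms that pair with each other, and lower case marks the 4-base loop.
H1f2 (chr13:23739512-23739527, plus strand): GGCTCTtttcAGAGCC
H2aw (chr11:58955172-58955187, plus strand): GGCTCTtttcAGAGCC
H2bc12 (chr13:22036300-22036315, plus strand): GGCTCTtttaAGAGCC
H4c9 (chr13:22040966-22040981, minus strand): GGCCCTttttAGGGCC
H2ax (chr9:44335240-44335255, plus strand): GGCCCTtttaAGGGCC
The letters of H1f2 and H2aw are the commonest kind, found in 26 clustered genes of types H1, H2A, H2B and H3. Genes of type H4 carried other arms, of which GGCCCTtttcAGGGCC was in 7 genes. The histone stem-loop, searched on the sense strand, was in an annotated transcript of 45 of the 64 clustered genes, in 8 kinds, and among the variants H2ax had one of a kind that no clustered gene carried. Over all 21951 protein-coding genes of the annotation the stem-loop was in 56, or 0.255%, of which 46 are the histone genes just counted. The annotated transcript ran 840 bases past the stem-loop in H1f2, 1643 bases in H2aw, 822 bases in H2ax, 330 bases in H4c9 and 30 bases in H2bc12.

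Pebp1 checked the labels. It was listed at 0 in KO libraries 1 to 3, against 39.2, 33.2 and 39.0 FPKM (fragments scaled by transcript length and library total) in WT libraries 1 to 3, at least 392-fold lower in KO by a floor of 12 counts per library. Total estimated counts were 63607276 to 70059042 in KO libraries and 53188659 to 55255365 in WT libraries. The macrophage markers Csf1r and Adgre1 averaged 381 ± 15.4 and 382 ± 7.79 FPKM in KO libraries, and 298 ± 2.19 and 288 ± 5.19 FPKM in WT libraries (SD, n = 3 each). Of 14 neutrophil markers, 8 were tested by edgeR as described below and all 8 fell, where 19.4% of all tested genes fell. The list summed to 7.90 to 8.29 FPKM in KO libraries against 78.0 to 164 FPKM in WT libraries. Of 10 macrophage markers 4 fell and 3 rose, where 19.4% of all tested genes fell and 20.3% rose. With the length and GC offset described below, 1 fell and 4 rose, where 14.8% and 16.6% of all tested genes did. The macrophage list, mostly Lyz2, summed to 18579 to 18837 FPKM in KO libraries and 20561 to 22067 FPKM in WT libraries. Stromal markers summed to 830 to 948 FPKM in KO libraries and 849 to 948 FPKM in WT libraries, nearly all from the collagen genes Col1a1, Col1a2 and Col3a1. Col1a1 averaged 460 ± 35.6 FPKM in KO libraries and 486 ± 31.8 FPKM in WT libraries, above Csf1r in either genotype. The stromal markers Cdh5 and Kdr averaged 0.552 and 0.402 FPKM in KO libraries and 1.12 and 0.569 FPKM in WT libraries. Summed B cell, T and NK cell, and erythroid markers were below 1 FPKM in every library. Ribosomal RNA genes held 1.14% to 2.09% of counts in KO libraries and 0.773% to 1.22% in WT libraries. In bulk RNA, fewer cells of a type and less RNA per cell cannot be told apart.

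Most clustered genes were barely detected. Their median level over the 6 libraries was 0.190 FPKM, 12 of 64 averaged at least 1 FPKM, 32 lay between 0.1 and 1 FPKM and 20 lay below 0.1 FPKM. In 27 of them at least 1 library was listed at 0, where the floor of 12 counts allows up to 0.0661 to 0.495 FPKM depending on the gene. By contrast, 9 of the 10 variant genes averaged at least 5 FPKM, and their median was 21.2 FPKM. Because clustered genes resemble each other, reads can be split between them: 32 of the 64 shared at least 50% of their 50-base words with other genes, among them 6 of the 12 at or above 1 FPKM. Just inside that limit were H2bc13 and Hist1h4n, and just outside it were Hist1h2bq (1.08, 0.926 and 0.966 FPKM in KO, 0.997, 0.742 and 0.908 FPKM in WT), H2ac8 (1.35, 0.877 and 0.881 FPKM in KO, 0.781, 0.340 and 0.705 FPKM in WT) and H2bc11 (0.348, 0.798 and 0.545 FPKM in KO, 0.779, 1.09 and 0.676 FPKM in WT).

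**Figure D1:**
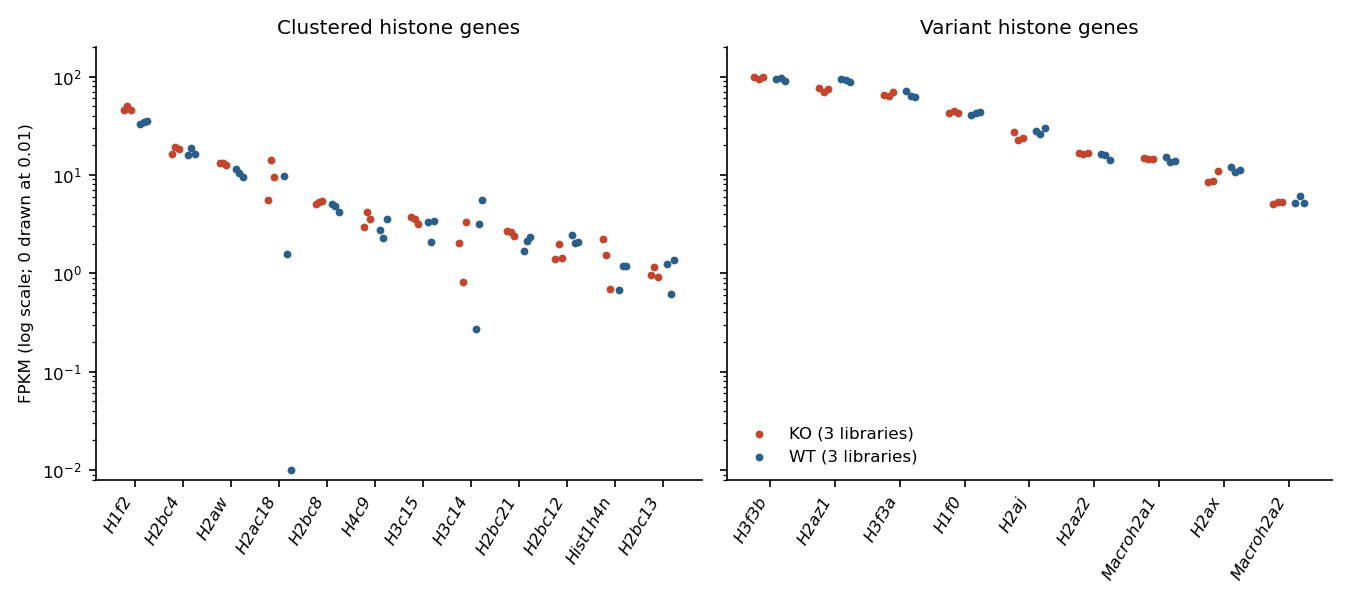
FPKM (log axis) of the 12 clustered and 9 variant histone genes that averaged at least 1 FPKM, with a point for each KO and WT library; the zero of H2ac18 is drawn at 0.01. The KO points of H1f2 and H2aw lie above their WT points, those of H2az1 lie below, and H2ac18 and H3c14 spread most between WT libraries.

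The comparison of KO with WT used edgeR's quasi-likelihood test with Benjamini-Hochberg adjustment over the 11636 genes that averaged at least 1 FPKM, which take in 25 of the histone genes. Log2 fold changes are KO over WT. Among the 12 clustered genes tested, 2 rose and 0 fell, where 20.3% of all tested genes rose and 19.4% fell. Of clustered genes, 0 were lower at an unadjusted p under 0.05. DESeq2 called 0 of them lower and 2 higher, where it called 20.1% and 21.8% of all tested genes lower and higher. Limma called 1 lower and 2 higher, where it called 14.1% and 23.8%. The median log2 fold change of the 12 was 0.22, against -0.01 over all tested genes. Limma on log2(FPKM + 1) put 62.8% of its calls over all genes on the higher side, against 51.2% with edgeR.

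H1f2 (Hist1h1c) rose. It encodes the linker histone H1.2, lies at chr13:23738808-23740367 on the plus strand and was the most abundant clustered gene, with 3228 to 5661 estimated counts per library. Its level was 46.3, 50.4 and 46.2 FPKM in KO libraries 1 to 3, against 33.3, 34.9 and 35.5 FPKM in WT libraries 1 to 3. Every KO library lay above every WT library, as was so for 32.4% of all tested genes. The rise was 1.33-fold, a log2 fold change of 0.41 ± 0.05 (SE) with an adjusted p of 7.06e-05 by edgeR, and it passed the threshold in all 17 alternative settings. Of its 50-base words, 8.54% were shared with other genes, namely H1f3 and H1f4, which averaged 0.0433 and 0.245 FPKM in KO libraries against 0.0329 and 0.157 FPKM in WT libraries.

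H2aw (Hist3h2a), a gene for H2A on chromosome 11 (chr11:58954685-58956830, plus strand), also rose. Its level was 13.2, 13.3 and 12.5 FPKM in KO libraries, against 11.6, 10.5 and 9.59 FPKM in WT libraries. The groups did not overlap, with every KO library above every WT library as for 32.4% of all tested genes. The rise was 1.19-fold, a log2 fold change of 0.25 ± 0.08 (SE, edgeR adjusted p 0.0242). The call was lost without KO library 1 (adjusted p 0.0767), KO library 2 (0.0563), WT library 2 (0.0626) or WT library 3 (0.104), and without a filter on low values (0.0564). Of its 50-base words, 31.5% were shared with other genes, the overlapping Trim17 first among them, which averaged 0.158 FPKM in KO libraries and 0.350 FPKM in WT libraries.

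The other 10 clustered genes tested did not pass. H2bc4 (Hist1h2bc), a gene for H2B and the second most abundant, had 16.2, 19.2 and 18.2 FPKM in KO libraries against 15.8, 18.9 and 16.2 FPKM in WT libraries, overlapping groups with a log2 fold change of 0.02 ± 0.09 (edgeR adjusted p 0.875). H2bc8 (Hist1h2bg) had 5.01, 5.31 and 5.40 FPKM in KO libraries against 5.04, 4.83 and 4.17 FPKM in WT libraries, with a log2 fold change of 0.11. H2bc21 (Hist2h2be), whose words were shared with no other gene, had 2.71, 2.62 and 2.40 FPKM in KO libraries against 1.68, 2.14 and 2.31 FPKM in WT libraries. Its groups did not overlap, with KO above WT as for 32.4% of all tested genes, and its log2 fold change of 0.28 had an adjusted p of 0.15 by edgeR.

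H2bc12 (Hist1h2bk), the other tested H2B gene whose groups did not overlap, lay on the lower side, as did 19.1% of all tested genes without overlap. It had 1.40, 1.96 and 1.42 FPKM in KO libraries against 2.45, 2.02 and 2.10 FPKM in WT libraries, with a log2 fold change of -0.51 ± 0.24 (edgeR adjusted p 0.117, limma adjusted p 0.0452). It shared 74.2% of its words with genes such as Hist1h2bq and Hist1h2br, so its level is uncertain. H2bc13 (Hist1h2bl) had 0.953, 1.15 and 0.917 FPKM in KO libraries and 1.25, 0.617 and 1.37 FPKM in WT libraries.

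Of the genes for H4, H4c9 (Hist1h4i) had 2.94, 4.25 and 3.56 FPKM in KO libraries against 2.78, 2.27 and 3.6 FPKM in WT libraries, and Hist1h4n had 2.22, 1.55 and 0.691 FPKM in KO libraries against 0.675, 1.18 and 1.19 FPKM in WT libraries. The groups overlapped in both, with log2 fold changes of 0.26 and 0.48. For H3, H3c15 (Hist2h3c2) had 3.70, 3.61 and 3.14 FPKM in KO libraries against 3.30, 2.10 and 3.43 FPKM in WT libraries, a log2 fold change of 0.19 with overlapping groups.

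H2ac18 (Hist2h2aa1, H2A) and H3c14 (Hist2h3c1, H3) are neighbours on chromosome 3 and differed widely between libraries of the same genotype. H2ac18 had 5.54, 14 and 9.52 FPKM in KO libraries against 9.72, 1.57 and 0 FPKM in WT libraries, a log2 fold change of 1.3 ± 0.85 (edgeR adjusted p 0.251). Without WT library 1 the log2 fold change was 3.56 with an adjusted p of 0.00551. H3c14 had 2.04, 0.819 and 3.30 FPKM in KO libraries against 0.268, 3.17 and 5.63 FPKM in WT libraries, so that WT library 1 was highest for H2ac18 and lowest for H3c14 among WT libraries, and WT library 3 the reverse. Exons of Gm20634, a transcript on the same strand, overlap both, and it had 5.82, 6.12 and 4.44 FPKM in KO libraries against 6.17, 4.94 and 1.34 FPKM in WT libraries. H2ac18 shared 89.4% of its 50-base words with other genes and H3c14 shared 100%, with Gm20634 among the genes sharing most with either, so these levels are uncertain.

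Of the variant genes, 9 were tested: 3 fell and 0 rose, where 19.4% of all tested genes fell and 20.3% rose. DESeq2 called 3 lower, where it called 20.1% of all tested genes lower and 21.8% higher. Limma called 1 lower, where it called 14.1% lower and 23.8% higher. By either tool, or at an unadjusted p under 0.05 by edgeR, 0 variant genes were higher. With the length and GC offset 0 were lower and 1 was higher, where 14.8% of all tested genes were lower and 16.6% higher. The median log2 fold change of the 9 was -0.05. H2az1 (H2afz, chr3:137864487-137866922, plus strand), which encodes the H2A.Z histone found beside transcription start sites, had 76.1, 69.3 and 74.6 FPKM in KO libraries against 94.0, 91.5 and 87.3 FPKM in WT libraries. Every KO library lay below every WT library, as did 19.1% of all tested genes. H2az1 fell 1.29-fold, a log2 fold change of -0.36 ± 0.05 (SE) with an adjusted p of 2.19e-04 by edgeR. It kept its call when any single library was left out, and lost it with an offset for transcript length and GC content described below, where the log2 fold change was -0.08 (adjusted p 0.137). Of its words, 33.2% were shared with other genes, among them the pseudogenes Gm13007 and Gm6722, which averaged 0.275 and 0.128 FPKM in KO libraries and 0.679 and 0.0298 FPKM in WT libraries.

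H2ax (H2afx, chr9:44334694-44336077, plus strand) encodes the H2A variant that is phosphorylated at DNA breaks. It had 8.50, 8.70 and 10.9 FPKM in KO libraries against 12, 10.8 and 11.2 FPKM in WT libraries, overlapping because KO library 3 lay above WT library 2. H2ax fell 1.25-fold (log2 fold change -0.32 ± 0.10, edgeR adjusted p 0.0251), and the call was lost without KO library 1 (0.0972), KO library 2 (0.0783), WT library 1 (0.0815) or WT library 3 (0.0571), with limma (0.0538), without a filter on low values (0.0993) and with the length and GC offset (log2 fold change -0.20, adjusted p 0.186).

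H2aj (H2afj), an H2A variant gene on chromosome 6, had 27.1, 22.4 and 24.0 FPKM in KO libraries against 28.0, 26.4 and 29.8 FPKM in WT libraries, and KO library 1 lay within the WT range. H2aj fell 1.19-fold (log2 fold change -0.25 ± 0.08, edgeR adjusted p 0.0222). Its call was lost without KO library 2 (0.0787), KO library 3 (0.0811) or WT library 3 (0.0897), with limma (0.0721), without a filter on low values (0.116) and with the length and GC offset (log2 fold change -0.09, adjusted p 0.382).

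The other variant genes did not pass. H3f3b and H3f3a both encode the replacement histone H3.3, and were the first and the third of the variants by level. H3f3b had 99.4, 95.6 and 99.1 FPKM in KO libraries against 94.0, 96.8 and 91.1 FPKM in WT libraries, with a log2 fold change of 0.01 ± 0.04. H3f3a had 64.4, 64.2 and 69.6 FPKM in KO libraries against 71.5, 64.2 and 62.1 FPKM in WT libraries, with a log2 fold change of -0.05. The groups of both genes overlapped.

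H1f0, the linker histone of cells that have left the cycle, had 43.0, 44.2 and 43.1 FPKM in KO libraries against 40.4, 43.1 and 44.1 FPKM in WT libraries, with a log2 fold change of -0.02 ± 0.04 (edgeR adjusted p 0.700). H2az2 (H2afv), the other H2A.Z gene, had 16.8, 16.3 and 16.6 FPKM in KO libraries against 16.3, 16.1 and 14.2 FPKM in WT libraries. Its groups did not overlap, by a narrow margin at WT library 1, with KO above WT as for 32.4% of all tested genes. The log2 fold change of H2az2 was 0.04 (edgeR adjusted p 0.702). Macroh2a1 (H2afy), which encodes the large variant macroH2A, had 14.8, 14.4 and 14.5 FPKM in KO libraries against 15.3, 13.5 and 13.9 FPKM in WT libraries. Macroh2a2 (H2afy2) had 5.11, 5.33 and 5.33 FPKM in KO libraries against 5.15, 6.16 and 5.14 FPKM in WT libraries. The groups of H1f0, Macroh2a1 and Macroh2a2 overlapped. H1f10 averaged 0.602 FPKM and was not tested here, with 0.385, 1.87 and 0.461 FPKM in KO libraries and 0.231, 0.234 and 0.426 FPKM in WT libraries.

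**Figure D2:**
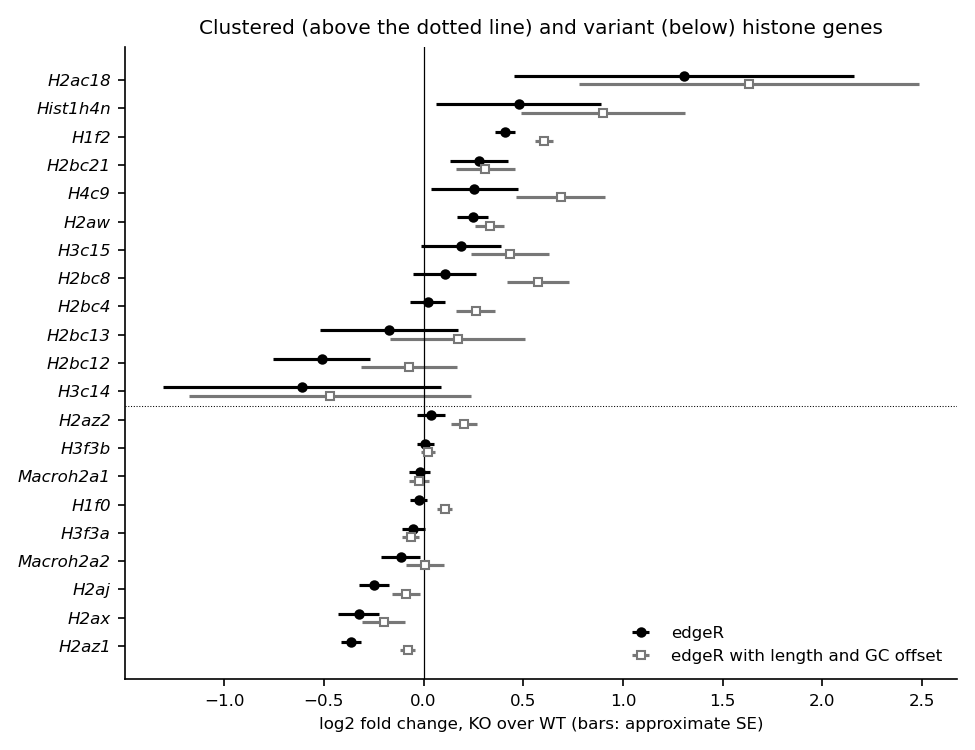
Log2 fold change, KO over WT, of each tested clustered gene (above the dotted line) and variant gene (below it), with bars for the approximate SE; filled circles are edgeR, open squares edgeR with an offset for transcript length and GC content. H1f2 is on the higher side in both, at 0.41 and 0.60, while H2az1 moves to -0.08 with the offset, against -0.36 without it.

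Fold changes in these libraries followed transcript length, and many of the tested histone genes are short. The median transcript length was 873.5 bases for tested clustered genes and 2055 bases for tested variant genes. Among tested genes of 38 to 966 bases the median log2 fold change was -0.32, with 43.9% lower and 3.18% higher in KO. In the next length class, of 967 to 1606 bases, which holds H1f2, H2bc4, H3c15, H2az1 and H2ax, the median was -0.17, with 36.6% lower and 4.47% higher. In the class of 1607 to 2143 bases, which includes H2aj, the median was -0.11, with 29.3% lower and 6.45% higher. In that of 2143 to 2674 bases, which includes H2aw, it was -0.06, with 20.8% lower and 9.72% higher. In the longest of the 10 classes, of about equal numbers of genes, the median was 0.20. An offset for each library's trend on length and GC content was therefore added to edgeR as an alternative.

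With that offset, H1f2 had a log2 fold change of 0.60 (adjusted p 5.05e-06) and H2aw of 0.33 (adjusted p 0.00551). H2bc8 and H4c9 then passed as well, at 0.57 (adjusted p 0.0154) and 0.69 (adjusted p 0.0363), giving 4 clustered genes that were higher and 0 that were lower, where 16.6% and 14.8% of all tested genes were higher and lower. The 3 falls among variants were lost, with adjusted p of 0.137 for H2az1, 0.186 for H2ax and 0.382 for H2aj, and H2az2 passed at 0.20 (adjusted p 0.0337). The median of the 12 clustered genes was 0.38 with the offset, that of the 9 variants was -0.02 and that of all tested genes was 0.01.

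Summed over the 64 genes, the clustered level was 114, 129 and 120 FPKM in KO libraries against 97.9, 94.6 and 97.0 FPKM in WT libraries, a log2 ratio of 0.33 between the group means, with no overlap. H1f2 made up 39.4% ± 1.01 of this sum in KO libraries and 35.8% ± 1.57 in WT libraries (SD, n = 3 each). Without it the sum was 67.8 to 78.6 FPKM in KO libraries and 59.7 to 64.5 FPKM in WT libraries, a log2 ratio of the means of 0.24 in FPKM and of 0.12 in counts scaled by library total alone (CPM). That remainder includes H2ac18, whose level is uncertain, at a mean of 9.70 FPKM in KO libraries and 3.76 FPKM in WT libraries. The 52 clustered genes under 1 FPKM summed to 11.7 ± 0.822 FPKM in KO libraries and 10.8 ± 1.04 FPKM in WT libraries, which overlapped. Variant genes summed to 352 ± 8.37 FPKM in KO libraries and 368 ± 8.81 FPKM in WT libraries. Clustered genes thus held 25.6% ± 1.59 of the summed histone level in KO libraries and 20.8% ± 0.445 in WT libraries.

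The shift differed by histone type. In H1, H1f2 supplied 51.4%, 52.0% and 51.2% of the summed FPKM in KO libraries against 44.9%, 44.3% and 44.2% in WT libraries, and nearly all the rest was H1f0. Clustered H2A summed to 26.0 ± 3.57 FPKM in KO libraries and 17.2 ± 5.71 FPKM in WT libraries, overlapping because of H2ac18. The H2A variants summed to 136.6 to 148.4 FPKM in KO libraries, below the 161.5 to 170.7 FPKM of WT libraries. Within that sum H2az1 averaged 73.3 FPKM in KO libraries and 90.9 FPKM in WT libraries. The falls of H2az1, H2ax and H2aj did not pass with the length and GC offset, which these sums do not include. Clustered H2B summed to 32.2 ± 2.36 FPKM in KO libraries and 31.0 ± 1.13 FPKM in WT libraries. In H3, variant genes supplied 95.9% ± 0.529 of the sum in KO libraries and 95.7% ± 1.59 in WT libraries. Clustered H4 summed to 7.54 ± 0.301 FPKM in KO libraries and 6.27 ± 1.53 FPKM in WT libraries. These sums were compared by their spread, with no test.

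**Figure D3:**
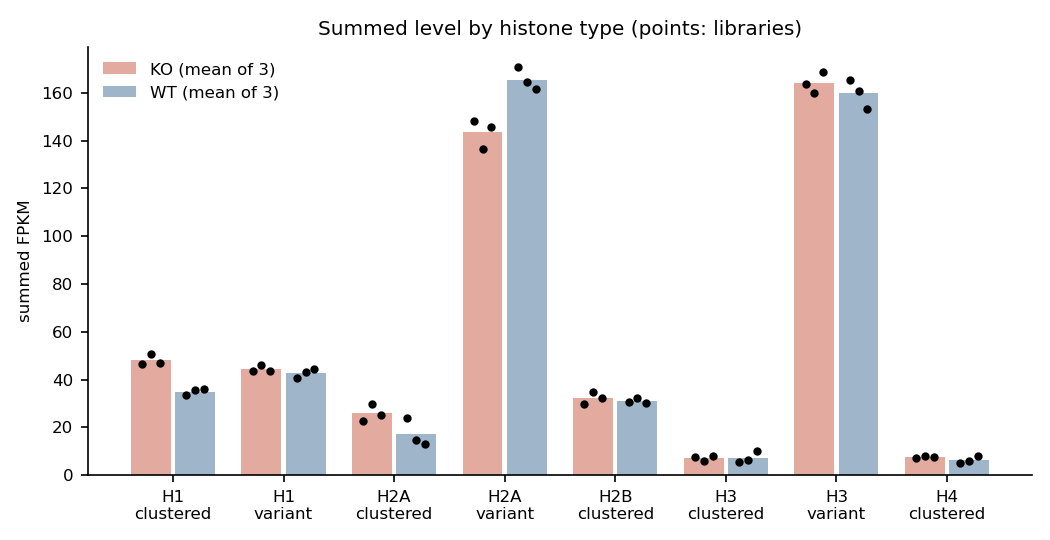
Summed FPKM of clustered and variant genes of each histone type; bars are means of 3 libraries (KO left, WT right) and points are libraries. The KO points lie above the WT points for clustered H1 and below them for variant H2A.

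By position, 51 of the clustered genes lie on chromosome 13, 10 on chromosome 3, 2 on chromosome 11 and 1 on chromosome 6. The chromosome 13 genes fall into 3 stretches, separated by more than 200 kb between gene starts. These hold 18, 5 and 28 genes, with summed mean levels of 6.68, 6.18 and 68.3 FPKM. H1f2, H2bc4 and H2bc8 are the genes at or above 1 FPKM in the stretch of 28, and the other 25 genes there stay below 1 FPKM.

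**Figure D4:**
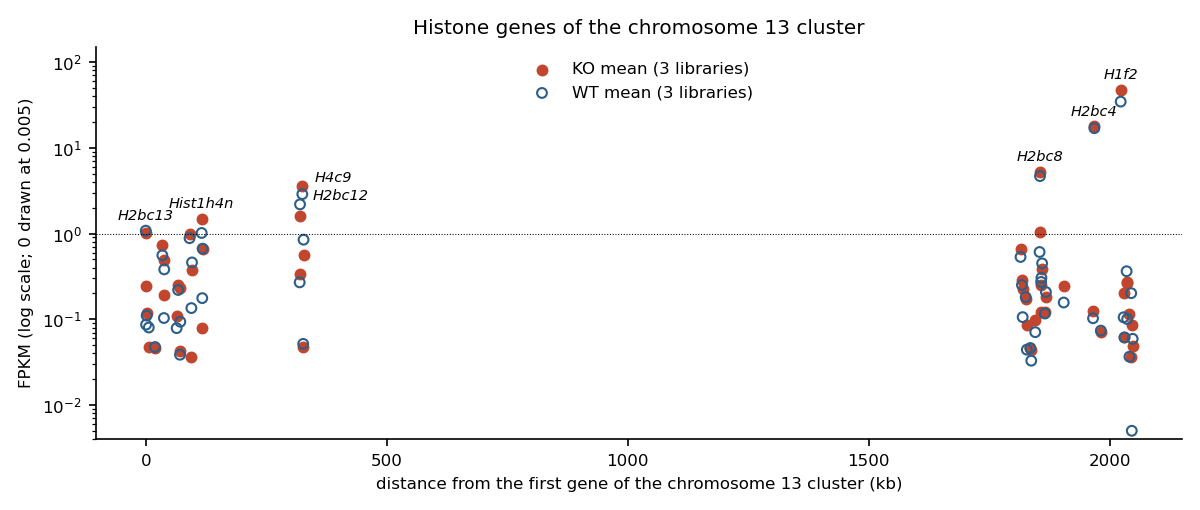
Mean FPKM (log axis, 0 drawn at 0.005) of 51 clustered genes against their distance in kb from the first of them on chromosome 13; filled points are KO means and open points WT means of 3 libraries, and the dotted line is 1 FPKM. H1f2, H2bc4 and H2bc8 stand above the other genes of the right-hand stretch in either genotype.

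The annotated 3′ end was set beside the level as a description. Of 22 clustered genes whose transcript runs 100 or more bases past the stem-loop, 6 averaged at least 1 FPKM, and their median was 0.186 FPKM. Of 23 whose transcript ends within 100 bases of it, 3 did, with a median of 0.166 FPKM. Of 19 with no such stem-loop, 3 did, with a median of 0.243 FPKM. The median annotated transcript of those 19 was 411 bases long, against 618 bases for genes with the stem-loop. In a transcript annotated only up to a point before the stem-loop, the search could not find one. The 19 are therefore not given as a separate kind of 3′ end. The poly(A) signal AATAAA, searched on the sense strand, was in the last 40 bases of 11 clustered genes, 4 of which averaged at least 1 FPKM, and was absent there in 53, 8 of which did. It was in the last 40 bases of 57.4% of 16206 protein-coding genes of the table.

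Pseudogenes were kept apart. Of 9, 4 averaged at least 1 FPKM, and of these 1 fell, where 19.4% of all tested genes fell and 20.3% rose. H3f3c, a copy of H3f3a on chromosome 2, had 2.12, 0.889 and 1.15 FPKM in KO libraries against 4.27, 2.96 and 2.66 FPKM in WT libraries, and fell 2.46-fold (log2 fold change -1.30 ± 0.34, edgeR adjusted p 0.00932). It shared 73.8% of its words with other genes, H3f3a the first among them at 66.0 FPKM in KO libraries and 65.9 FPKM in WT libraries, and the call was lost with the length and GC offset (adjusted p 0.0855). Hist1h2al, on chromosome 13 outside the cluster, had 40.5, 42.9 and 35.9 FPKM in KO libraries against 37.5, 40.1 and 40.8 FPKM in WT libraries. It shared 67.6% of its words with other genes, with H2ac19, H2ac18 and Gm20634 the first among them. H3f3a-ps1 and H3f3a-ps2 had log2 fold changes of -0.08 (adjusted p 0.852) and -0.42 (adjusted p 0.349) by edgeR.

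Genes that act on histones or in the phases where histones are made were read from the same fit. Of 38 tested DNA replication genes, 27 fell and 0 rose, with a median log2 fold change of -0.37, where 19.4% of all tested genes fell and 20.3% rose. With the offset 26 fell and 0 rose, where 14.8% of all tested genes fell and 16.6% rose. Mcm5 and Mcm3, subunits of the replicative helicase, averaged 8.16 ± 0.141 and 10.4 ± 0.608 FPKM in KO libraries against 11.7 ± 0.773 and 14.4 ± 0.557 FPKM in WT libraries (SD, n = 3 each). Gins2, of the helicase complex, had a log2 fold change of -0.69 and the DNA ligase Lig1 of -0.54. Of 20 mitosis genes, 14 fell and 0 rose, with a median of -0.42, and the kinase Plk1 averaged 10.7 ± 0.651 FPKM in KO libraries against 16.3 ± 0.570 FPKM in WT libraries. Bub1b, Aurkb and Cdc20, of the spindle checkpoint and chromosome segregation, had log2 fold changes of -0.48, -0.63 and -0.45. In both lists 0 genes were higher at an unadjusted p under 0.05 by edgeR, or by DESeq2 or limma, which called 21.8% and 23.8% of all tested genes higher. The share of ribosomal RNA overlapped between the genotypes. Whether that share, the fall of these lists or the lower neutrophil markers has a part in the levels of H1f2, H2aw, H2az1, H2ax or H2aj was not tested.

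**Figure D5:**
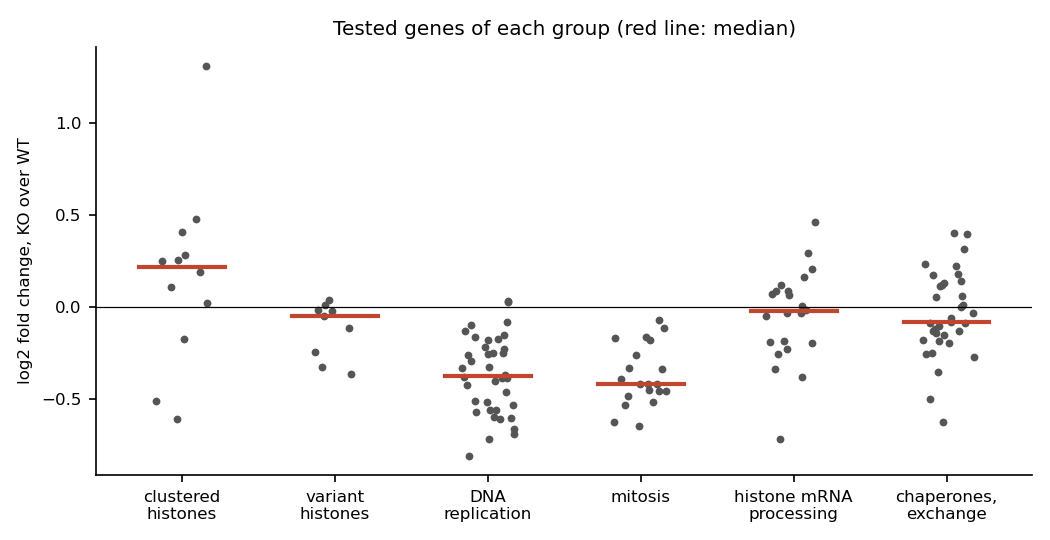
Log2 fold change, KO over WT, of each tested gene (points) and the median (red lines) for clustered histones, variant histones and 4 lists of other genes. The medians of the DNA replication and mitosis lists are -0.37 and -0.42, against 0.22 for clustered and -0.05 for variant histones.

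Of 22 tested genes for histone mRNA processing, 5 fell and 2 rose, with a median of -0.02, and of 35 tested chaperones and exchange factors, 9 fell and 6 rose, with a median of -0.08. Over all tested genes 19.4% fell and 20.3% rose, and neither list is given as departing from that. Slbp, which binds the stem-loop, averaged 5.13 ± 0.390 FPKM in KO libraries and 5.06 ± 0.158 FPKM in WT libraries, with a log2 fold change of -0.03 ± 0.07 (edgeR adjusted p 0.738). The risers were Tut4 and Tut7, terminal uridylyl transferases, at 6.77 ± 0.322 and 11.4 ± 0.621 FPKM in KO libraries against 4.73 ± 0.297 and 8.99 ± 0.321 FPKM in WT libraries. Ccne1, the cyclin that opens S phase, fell with a log2 fold change of -0.72, and Snrpb, a shared snRNP protein, with -0.38. Asf1b, an H3-H4 chaperone of dividing cells, averaged 5.63 ± 0.492 FPKM in KO libraries against 8.38 ± 0.18 FPKM in WT libraries. Ubn1 and Ubn2, of the H3.3 chaperone complex HIRA, rose with log2 fold changes of 0.31 and 0.40. Atrx, of the other H3.3 pathway, rose with 0.40, and Cabin1 with 0.14. Hira and Daxx, at -0.09 and -0.15, did not pass (edgeR adjusted p 0.313 and 0.126). With the offset Ubn2, Atrx and Cabin1 stood at 0.03 each and did not pass (adjusted p 0.531, 0.544 and 0.577).

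Levels of RNAs that lack a poly(A) tail were set beside the clustered genes because oligo(dT) selection is meant to leave out both kinds. The table has 12 rows for such RNAs, under 10 names, which summed to 142 to 186 FPKM in KO libraries and 80.7 to 108 FPKM in WT libraries. Malat1, a nuclear long RNA whose encoded A-rich end can bind oligo(dT), supplied most of that, at 155 ± 18.2 FPKM in KO libraries and 78.0 ± 10.7 FPKM in WT libraries, and it rose with a log2 fold change of 0.94 ± 0.10 (edgeR adjusted p 3.56e-05). The others tested, Rn7sk, Rn7s1 and Rn7s2, had log2 fold changes of -0.27, -0.26 and -0.28 and did not pass (adjusted p 0.392, 0.624 and 0.576). Whether these levels have a part in those of H1f2 and H2aw was not tested.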

How the data were processed

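Per the labels' protocols, RNA passed through oligo(dT) selection and libraries were made with dUTP strand marking. The tools named in the submitters' processing notes were HISAT2 2.0.4, StringTie 1.3.4d and cutadapt 1.9. The genome build, and whether counting used the strand, were not given in the sources used here. The table deposited by the authors holds FPKM and estimated counts per gene and library. Low deposited estimated counts peaked at multiples of 4 but took other values too. Counts of 4, 8 and 12 were found 5769, 2692 and 1516 times, against 3204, 1689 and 1155 times for 3, 7 and 11. Counts of 1 and 2 were also common, at 5103 and 4173 times. A fragment was taken as about 4 counts, so that 3 fragments, or 12 counts per library, served as an approximate floor. Intervals and floors cover counting error only.

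The estimated counts, deposited as whole numbers, went into edgeR 4.0.16 (R 4.3.3) with TMM scaling, for genes averaging 1 FPKM or more, two-sided, with Benjamini-Hochberg adjustment and a threshold of 0.05. Alternatives were limma 3.58.1 with trend on log2(FPKM + 1), DESeq2 1.42.0, other filters and scalings, an offset by loess (span 0.3) on transcript length and GC content, a replicate block, counts divided by 4 and leaving out each library. The scripts were tested on simulated data. SEs are approximate. FPKM values are means ± SD of 3 libraries.

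Gene identifiers matched GENCODE M21 (GRCm38) for 27382 genes, 24732 with identical coordinates, among them 82 of the 84 histone genes. Gene coordinates are as deposited and stem-loop coordinates are GRCm38. Shared sequence is the percent of a gene's 50-base words found in other genes' transcripts. Named genes are all clustered and variant genes of at least 1 FPKM, the 3 next highest, pseudogenes of at least 1 FPKM, and 4 genes with the smallest p per list. Slbp, H1f10, Csf1r, Gm20634, H4f16, Cabin1, Hira and Daxx were chosen after values were seen. The members and the lists were chosen with earlier results of these data known. Replicates of a genotype were not copies of each other (chi-square of 3.41 to 6.85 per degree of freedom, on counts divided by 4). Deviations of same-numbered libraries from their group means had correlations of 0.02, 0.19 and -0.04. The 0.19 of KO library 2 with WT library 2 was the highest of all KO and WT pairs. Tables and plots used Python 3.11.15, numpy 2.4.6, pandas 2.3.3 and matplotlib 3.10.9.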

Additional observations from a re-analysis of the deposited data

How the results depend on the processing

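H1f2 kept its direction and its call under every alternative. Counts of called histone genes were small and moved. The 2 clustered genes called higher became 1 without a filter on low values, 1 by deposited symbols alone (an alternative chosen after seeing the data), 4 with the length and GC offset, 5 with the replicate block and the offset, and 1 to 3 when a library was left out. The 0 called lower became 1 with limma at either pseudocount. The 3 variant genes called lower became 1 with limma at either pseudocount, 1 without the filter, 0 with the offset, 0 with the block and the offset, 0 by deposited symbols alone, and 1 to 3 when a library was left out. The 0 variant genes called higher became 1 with the offset, with or without the block. The log2 ratio of the summed variant level was -0.11 in CPM. Planned sums without pseudogenes are the values reported. Same-numbered libraries had correlations of 0.02, 0.19 and -0.04 and not every library correlated best with its own number; the replicate block gave 2294 genes lower and 2407 higher, and the same counts of histone genes.

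Some genes changed sign, and none passed the threshold in a setting where its sign had changed. H2az2 and H2bc4 passed in others, with their usual sign. With the offset, and with the block and the offset, the log2 fold changes were 0.17 and 0.20 for H2bc13, 0.14 and 0.14 for Hist1h2al, 0.43 and 0.46 for H3f3a-ps1, 0.10 and 0.10 for H3f3a-ps2, 0.11 and 0.11 for H1f0, and 0.0072 and 0.012 for Macroh2a2. With limma at pseudocounts of 1 and 0.1 they were 0.0084 and 0.0085 for Hist1h2al, 0.0063 and 0.019 for H3f3a-ps1, 0.0046 and 0.0047 for H3f3a, 0.029 and 0.030 for H1f0, and 0.033 and 0.035 for Macroh2a1. Without the filter Macroh2a1 was at 2.9e-04, and at a mean of at least 5 FPKM H3f3b was at -0.0020. With a library left out, ranges crossed 0 for H2bc4 (-0.028 to 0.10), H3c15 (-0.0067 to 0.32), H3c14 (-1.15 to 0.21), H2bc13 (-0.45 to 0.033), Hist1h2al (-0.093 to 0.031), H3f3a-ps1 (-0.23 to 0.18), H3f3b (-0.013 to 0.031), H3f3a (-0.087 to 0.011), H1f0 (-0.060 to 0.0071), H2az2 (-0.017 to 0.073) and Macroh2a1 (-0.057 to 0.033). Apart from the offset's own construction, the cause of these moves was not tested. Differences in the 27 clustered genes with a library listed at 0 are limited by the floor of 12 counts.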
